A study of Mus musculus with 8 samples.

Results

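The genes described here build, inspect and dispose of proteins inside the endoplasmic reticulum, and they were compared between re-fed and starved C2C12 myotubes. The 39 members are 21 folding genes (4 Hsp70 and Hsp90 chaperones, 5 co-chaperones, 2 lectin chaperones, 8 disulfide isomerase relatives and the 2 secreted stress factors Manf and Creld2), 8 genes of endoplasmic reticulum-associated degradation, 7 of protein translocation into the organelle and 3 sensors or transcription factors of the unfolded protein response. They were chosen by symbol: every probe set annotated with exactly 1 gene symbol that is on the list was taken. This gave 75 probe sets for 37 genes, out of 22626 probe sets on the array, whose probe sets of 1 symbol name 12393 genes. No probe set of 1 symbol was found for Hspa13 or Sec61g, which are not analysed here.

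C2C12 is a mouse myoblast line obtained by subcloning, which fuses into multinucleated myotubes when serum is lowered. All cultures differentiated in medium with 2% horse serum and were fed until day 4. Control cultures then got fresh medium each 48 h, starved cultures got none for 4 days, and RNA was taken from both on day 8. Each group had 4 Affymetrix mouse expression arrays, controls A to D and starved E to H; the labels name no drug, transgene or change of genotype. These are whole-culture RNA samples, in which fewer cells of a type and less RNA per cell cannot be told apart.

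Newly made secretory and membrane proteins enter the endoplasmic reticulum through the Sec61 channel, fold with the help of chaperones and disulfide isomerases, and are sent to the proteasome if they fail. When unfolded proteins build up, the sensors Ern1 (IRE1), Atf6 and Eif2ak3 (PERK) start the unfolded protein response. Ern1 and Atf6 drive chaperone and degradation genes, partly through the transcription factor Xbp1, while PERK leads to translation of Atf4, which amino acid shortage also induces through another kinase. In skeletal muscle the same membrane system, as the sarcoplasmic reticulum, also stores calcium.

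Values are log2 signals after quantile normalization, fold changes are starved minus control on that log2 scale with standard errors from limma's linear model, and adjusted p-values were corrected by Benjamini-Hochberg across the 13575 tested probe sets (n = 4 arrays per group). For each gene the brightest of its tested probe sets was used, and the gene was called when its adjusted p was under 0.05. All 10 myotube markers were tested, among them Myog, Ckm and Acta1, with a summed intensity of 78304 to 80294 in control and 75187 to 78377 in starved arrays (1 called higher, 1 lower). All 8 fibroblast markers were also tested (11423 to 12933 against 9789 to 11456, with 1 higher and 2 lower). Of 6 adipocyte markers 4 had a probe set (453 to 645 against 787 to 1049; 1 higher), and of 6 osteoblast and chondrocyte markers 5 did (596 to 919 against 641 to 941; none called). Only 2 of the adipocyte and 3 of the osteoblast and chondrocyte markers were bright enough to be tested. An offset of 10.9 was added to every value, so no sum could be 0, and these sums do not show that a cell type was present. The part of these cell types in the results below was not tested. Control B stood apart. The log2 ratio of the 3' to the 5' Gapdh control probe set was 1.40 there and -0.23 to -0.04 on the other 7 arrays, and B was the lowest of the 8 arrays by over 0.5 in 7 of 69 member probe sets (3.44% of all probe sets). Results are therefore also given without it.

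After quantile normalization, starved cultures had higher signals for a small set of these genes. The degradation genes Derl1 and Herpud1 and the translocation gene Serp1 kept their calls in 18 of 19 alternatives. Of the 37 tested members 8 were called higher and 0 lower (Derl1, Serp1, Herpud1, Sec61b, Hyou1, Ssr4, Hspa5 and Manf). Over all 8352 tested genes 4.25% were called higher and 6.93% lower. The called changes were modest, from 1.26-fold for Manf to 1.83-fold for Derl1. The median log2 fold change of the members was 0.17, against 0.01 over all tested genes. Control and starved arrays did not overlap for 12 members that were higher (8.2% of all tested genes) and for 1 that was lower (10.3%). The count depended on the processing: it was 3 with median centring, 75th percentile centring or no intensity trend (Derl1, Herpud1 and Serp1 each time), 0 in unscaled values, and 4 to 8 with 1 array left out, with 4 when control C, control D or starved G was dropped. Without control B 8 members were called higher: Hyou1 lost its call (adjusted p = 0.0744) and Dnajb11 gained one (0.47, adjusted p = 0.0401).

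**Figure D1:**
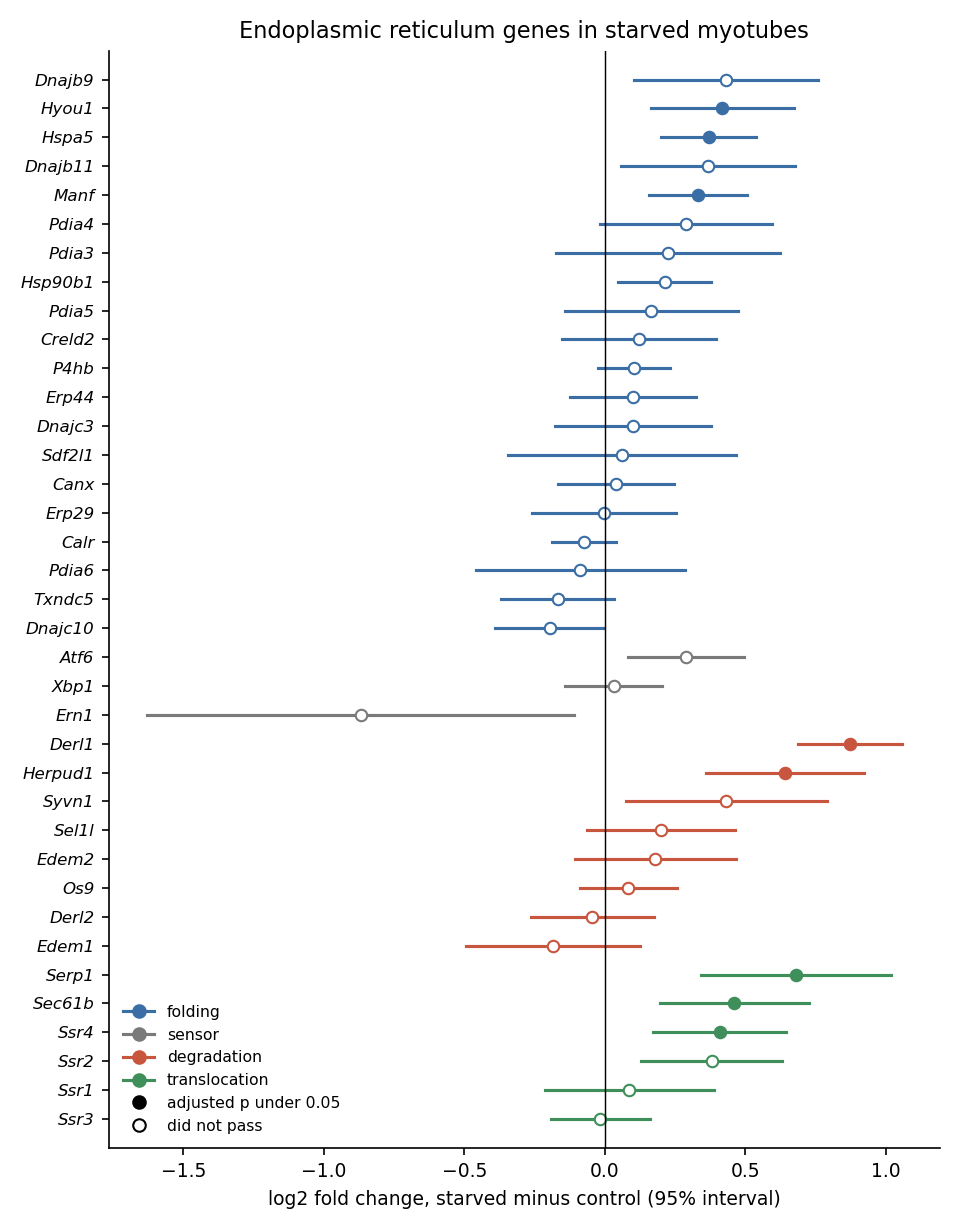
Log2 fold changes (starved minus control, log2 scale on the horizontal axis) of the 37 tested members with 95% confidence intervals, coloured by class; filled points have a limma adjusted p under 0.05 and n = 4 arrays per group. Derl1 (0.87) lies highest, and the intervals of most folding genes include 0.

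Promoters of some members carry a shared element. The members were chosen by symbol, but partly as genes of the unfolded protein response, whose factors bind this element. Its share among them is therefore a description and no independent result. The endoplasmic reticulum stress response element, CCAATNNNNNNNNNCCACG, is bound by Atf6 and Xbp1 together with the CCAAT-binding factor NF-Y, and its second form is ATTGGNCCACG. RefSeq promoter windows of 250 bases before to 50 after the start (GRCm38.p6) were given for 32 of the 39 members and searched on both strands. The windows did not include Atf6, Derl1, Erp29, Hspa13, Hyou1, Manf and Ssr2. The first form was found in 8 of the 32 members, and in 37 of 27025 genes overall (0.137%). The second form was found in 2 members and 12 genes overall (0.0444%). The matches are shown in the orientation of the element, with both fixed parts in capitals, since they are the part that these genes have in common.
Hspa5, chr2:34772025-34772043, plus strand: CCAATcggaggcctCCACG
Hsp90b1, chr10:86705638-86705656, minus strand: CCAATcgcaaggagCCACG
Hsp90b1, chr10:86705533-86705551, plus strand: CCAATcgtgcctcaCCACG
Calr, chr8:84847075-84847093, plus strand: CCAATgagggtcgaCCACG
Canx, chr11:50325800-50325818, minus strand: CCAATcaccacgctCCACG
Pdia6, chr12:17266491-17266509, plus strand: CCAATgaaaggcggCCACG
Dnajc3, chr14:118937827-118937845, plus strand: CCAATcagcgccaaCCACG
Creld2, chr15:88819520-88819538, minus strand: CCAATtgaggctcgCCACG
Syvn1, chr19:6046532-6046550, plus strand: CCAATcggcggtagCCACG
Herpud1, chr8:94386377-94386387, plus strand: ATTGGgCCACG
Dnajb11, chr16:22857852-22857862, plus strand: ATTGGcCCACG

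Among the members with a window, those with and without the first form had close medians. The called genes Derl1 (0.87), Hyou1 (0.42) and Manf (0.33) had no window and are in neither group. The same holds for Ssr2 (0.38), Atf6 (0.29) and Erp29 (-0.002), which were not called. Of the 8 members with the first form 1 was called higher (Hspa5), with a median log2 fold change of 0.11, and of 23 tested members with a window but without it 4 were called (median 0.10). The 2 members with the second form are counted among these 23. Of them Herpud1 (0.64) was called and Dnajb11 (0.37) was not. The shorter stretch CCACG, which lies inside both forms, was found in 26 of the 32 members but also in 35.5% of all genes. The motif TGATGNAA, an amino acid response element bound by Atf4 with a C/EBP partner, was found in Herpud1 and Txndc5 (4.51% of all genes). These are matches of letters in a fixed window and no record of binding.

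Among the folding genes, 3 of 20 tested members rose and none fell: the chaperones Hspa5 and Hyou1 and the secreted factor Manf. The class is small, and 4.25% of all tested genes were called higher and 6.93% lower. Hspa5 encodes BiP, the Hsp70 chaperone of the organelle that also holds the stress sensors inactive. Controls A to D had signals of 11.67, 11.79, 11.95 and 11.83, and the starved arrays E to H had 12.12, 12.25, 12.29 and 12.05. Every starved array lay above every control. The rise was 0.37 ± 0.08 (1.29-fold, adjusted p = 0.0104), and its second probe set rose by 0.56 ± 0.08 (adjusted p = 7.72e-04). The call of the first probe set was lost with median centring (adjusted p = 0.171), 75th percentile centring (0.0927), unscaled values (0.973) and without an intensity trend (0.0546). The Hspa5 promoter (chr2:34771840-34772139, plus strand) is printed because this gene is the common gauge of the unfolded protein response, with the element in capitals 65 bases before the start.
Hspa5 promoter: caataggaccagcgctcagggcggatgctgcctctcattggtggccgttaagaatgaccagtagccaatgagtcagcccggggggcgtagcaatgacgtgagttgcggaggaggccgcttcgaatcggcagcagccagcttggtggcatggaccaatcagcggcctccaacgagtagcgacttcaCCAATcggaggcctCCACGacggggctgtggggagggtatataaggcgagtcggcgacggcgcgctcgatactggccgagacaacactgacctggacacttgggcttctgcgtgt

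Hyou1 (GRP170) is a large Hsp70 relative that swaps the nucleotide of BiP. Controls A to D had signals of 9.47, 9.32, 9.44 and 9.42, and the starved arrays E to H had 10.04, 9.53, 9.96 and 9.80. The groups did not overlap, with starved F close to the controls. Hyou1 rose by 0.42 ± 0.11 (adjusted p = 0.0405), and its other tested probe set stood at 0.34 ± 0.23 (adjusted p = 0.409). This call held in 5 of 19 alternatives, and leaving out any 1 array other than starved F lost it (adjusted p = 0.0631 to 0.107). Hsp90b1 (GRP94), the Hsp90 chaperone of the organelle with a pair of response elements, had signals of 10.69, 10.62, 10.61 and 10.58 in control arrays A to D, against 10.76, 10.79, 10.83 and 10.98 in arrays E to H of the starved group. All starved arrays were higher, but the difference of 0.21 ± 0.08 did not pass (adjusted p = 0.105). A second Hsp90b1 probe set was at 0.44 ± 0.19 with overlapping groups (adjusted p = 0.187).

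Manf, a small secreted protein that binds BiP and is released under stress, had signals of 10.16, 10.27, 10.08 and 10.07 in control arrays A to D, against 10.51, 10.51, 10.51 and 10.39 in arrays E to H of the starved group. The starved arrays were all higher and lay close together except for H. Manf rose by 0.33 ± 0.08 (adjusted p = 0.0201), a call that held in 10 of 19 alternatives and was lost without control C or D or starved E, F or G (adjusted p = 0.0515 to 0.0673). Creld2, another secreted stress-responsive protein, was at 0.12 ± 0.12 (adjusted p = 0.614).

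None of the 5 co-chaperones, the 2 lectin chaperones or the 8 disulfide isomerase relatives passed. Among the J-domain proteins, which hand clients to BiP, Dnajb9 (ERdj4) stood at 0.43 ± 0.15 (adjusted p = 0.0981; groups not overlapping; called in 1 of 19 alternatives, without starved E, adjusted p = 0.0251) and Dnajb11 (ERdj3) at 0.37 ± 0.14 (adjusted p = 0.136). Dnajc3 (p58IPK) was at 0.10 ± 0.13, while its other tested probe sets were all below 0, from -0.18 to -0.05, without passing. Sdf2l1, a partner of the J-domain proteins that has no J domain itself, was at 0.06 ± 0.18. Dnajc10 (ERdj5), a reductase that opens disulfides, was the only member whose starved arrays were all lower. Its brightest probe set was at -0.20 ± 0.09 (adjusted p = 0.203), another at 0.19, and the third fell by 0.56 ± 0.16 (adjusted p = 0.0482), so its probe sets disagree. The lectin chaperones, which hold glycoproteins until they fold, had small differences with intervals that included 0. Calr was at -0.07 (95% interval -0.19 to 0.04) and Canx at 0.04 (-0.17 to 0.25).

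By their brightest probe sets the disulfide isomerase family ran from -0.17 for Txndc5 to 0.29 for Pdia4. Second tested probe sets lay on the other side of 0 for Txndc5 (0.37 ± 0.21, adjusted p = 0.326) and Erp44 (-0.23 ± 0.15, adjusted p = 0.406). P4hb, the founding isomerase and also a subunit of collagen prolyl hydroxylase, was at 0.10 (95% interval -0.02 to 0.23). Pdia4 (0.29 ± 0.14), Pdia3 (0.23 ± 0.18), which works with the lectin chaperones, and Pdia5 (0.17 ± 0.14) had adjusted p-values from 0.240 to 0.528. Erp44, which retains oxidases (0.10 ± 0.10), Erp29 (-0.002 ± 0.12), Pdia6 (-0.09 ± 0.17) and Txndc5 (-0.17 ± 0.09) ranged from 0.298 to 0.993. For Pdia3 the value depends on control B, at 9.54 against 10.29 to 10.34 in the other controls, and the difference was 0.03 without it.

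Among the degradation genes, 2 of 8 members rose and none fell, again in a small class. The shares of all tested genes were 4.25% called higher and 6.93% lower. Derl1 encodes derlin-1, a membrane protein of the channel through which failed proteins leave the organelle. Controls A to D had signals of 10.31, 10.30, 10.47 and 10.20, and the starved arrays E to H had 11.27, 11.21, 11.05 and 11.24. The lowest starved array stood far above the highest control. Derl1 rose by 0.87 ± 0.08 (1.83-fold, adjusted p = 6.27e-05), and all 4 of its probe sets were called, with rises from 0.43 to 0.87. Its relative Derl2 was at -0.04 (95% interval -0.26 to 0.17), and the difference between the relatives was not tested. Derl3, another derlin that is not among the members, rose by 0.68 ± 0.13 (adjusted p = 0.00566).

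Herpud1, a membrane protein that recruits parts of the degradation complex and is quickly turned over itself, had signals of 10.50, 10.69, 10.87 and 11.20 in control arrays A to D, against 11.40, 11.55, 11.42 and 11.46 in arrays E to H of the starved group. The controls spread widely and the starved arrays hardly at all, without overlap. Herpud1 rose by 0.64 ± 0.13 (1.56-fold, adjusted p = 0.00793), and its other probe set rose by 0.89 ± 0.10 (adjusted p = 1.96e-04). The promoter of Herpud1 (chr8:94386179-94386478, plus strand) held both kinds of element searched here. The capitals mark the second form of the stress response element 52 bases before the start and, on the opposite strand 112 bases before it, the amino acid response motif.
Herpud1 promoter: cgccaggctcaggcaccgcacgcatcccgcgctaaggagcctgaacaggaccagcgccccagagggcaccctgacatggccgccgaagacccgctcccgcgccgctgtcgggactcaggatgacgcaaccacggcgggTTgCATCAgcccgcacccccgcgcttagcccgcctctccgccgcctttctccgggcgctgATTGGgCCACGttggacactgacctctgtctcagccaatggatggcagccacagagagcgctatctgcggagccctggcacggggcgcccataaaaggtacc

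The ubiquitin ligase complex at the centre of this pathway did not pass. Syvn1 (HRD1), the ligase, had signals of 10.10, 9.29, 9.96 and 10.03 in control arrays A to D, against 10.25, 10.16, 10.26 and 10.44 in arrays E to H of the starved group. The groups did not overlap, and control B was far below the other controls. The difference was 0.43 ± 0.16 (adjusted p = 0.131), and 0.25 without control B (adjusted p = 0.127). Sel1l, the partner of Syvn1, was at 0.20 ± 0.12 (adjusted p = 0.343), with its other 3 tested probe sets from -0.07 to 0.45. The lectin-like proteins that pick out glycoproteins for disposal did not pass either. Os9 was at 0.08 ± 0.08, Edem2 at 0.18 ± 0.13 and Edem1 at -0.18 ± 0.14, with adjusted p-values from 0.449 to 0.574.

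**Figure D2:**
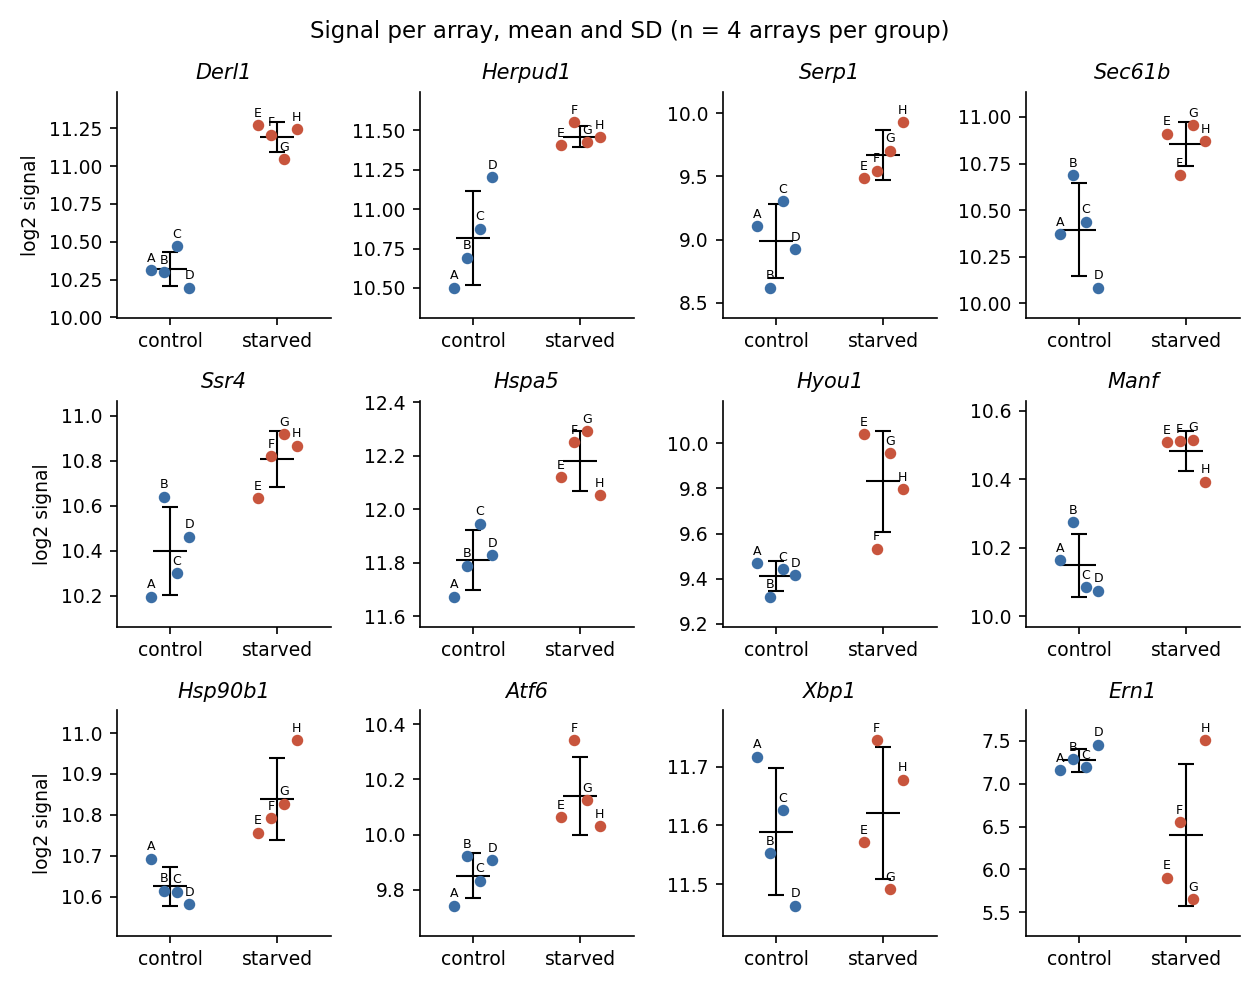
Log2 signal of each array for the 8 called members and for Hsp90b1, Atf6, Xbp1 and Ern1, with letters naming the arrays and bars giving the group mean and SD (n = 4 arrays per group). Control and starved arrays are separated for every gene shown except Ssr4, Xbp1 and Ern1.

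Among the translocation genes 3 of 6 tested members rose and none fell, in a small class. Of all tested genes 4.25% were called higher and 6.93% lower. Serp1 (RAMP4) is a small protein that sits on the Sec61 channel and protects new membrane proteins. Controls A to D had signals of 9.11, 8.62, 9.30 and 8.92, and the starved arrays E to H had 9.49, 9.55, 9.70 and 9.93. All starved arrays were higher, with control B the lowest array. Serp1 rose by 0.68 ± 0.15 (1.60-fold, adjusted p = 0.0159; 0.55 without control B, adjusted p = 0.0230), while a second Serp1 probe set was at 0.29 ± 0.12 (adjusted p = 0.174).

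Sec61b, a subunit of the channel itself, had signals of 10.37, 10.69, 10.44 and 10.08 in control arrays A to D, against 10.91, 10.69, 10.96 and 10.87 in arrays E to H of the starved group. Starved F and control B nearly met. Sec61b rose by 0.46 ± 0.12 (adjusted p = 0.0325; 0.56 without control B, adjusted p = 0.00615), a call held in 8 of 19 alternatives. It was kept without control B or starved F and lost without any other array (adjusted p = 0.0648 to 0.0863). A further probe set matches Sec61b and the gene model Gm10320 and was not used.

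The Ssr genes encode the 4 subunits of the translocon-associated protein complex, and 1 of the 4 was called. Ssr4 had signals of 10.20, 10.64, 10.30 and 10.46 in control arrays A to D, against 10.63, 10.82, 10.92 and 10.87 in arrays E to H of the starved group, so that control B and starved E overlapped. Ssr4 rose by 0.41 ± 0.11 (adjusted p = 0.0326) by its brightest probe set, but a dimmer one fell by 1.29 ± 0.31 (adjusted p = 0.0203), the third was at 0.26, and the mean of the 3 was at -0.21 (adjusted p = 0.383). The Ssr4 call held in 8 of 19 alternatives, and of the arrays left out in turn control B and starved E left it in place (adjusted p = 0.0587 to 0.0944 without the others). Ssr2 was higher in all starved arrays without passing (0.38 ± 0.11, adjusted p = 0.0588), and it was called in 3 of 19 alternatives (lowest adjusted p = 0.0398). Ssr1 (0.09 ± 0.14) and Ssr3 (-0.01 ± 0.08) did not pass.

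Among all 69 tested member probe sets 13 were called higher and 2 lower, the 2 being those of Dnajc10 and Ssr4. Of all 13575 probe sets 4.35% were called higher and 6.23% lower. Several probe sets were tested for 19 members, and in 12 of these they lay on 1 side of 0. Derl1, Herpud1 and Hspa5 were the members with more than 1 called probe set in the same direction.

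**Figure D3:**
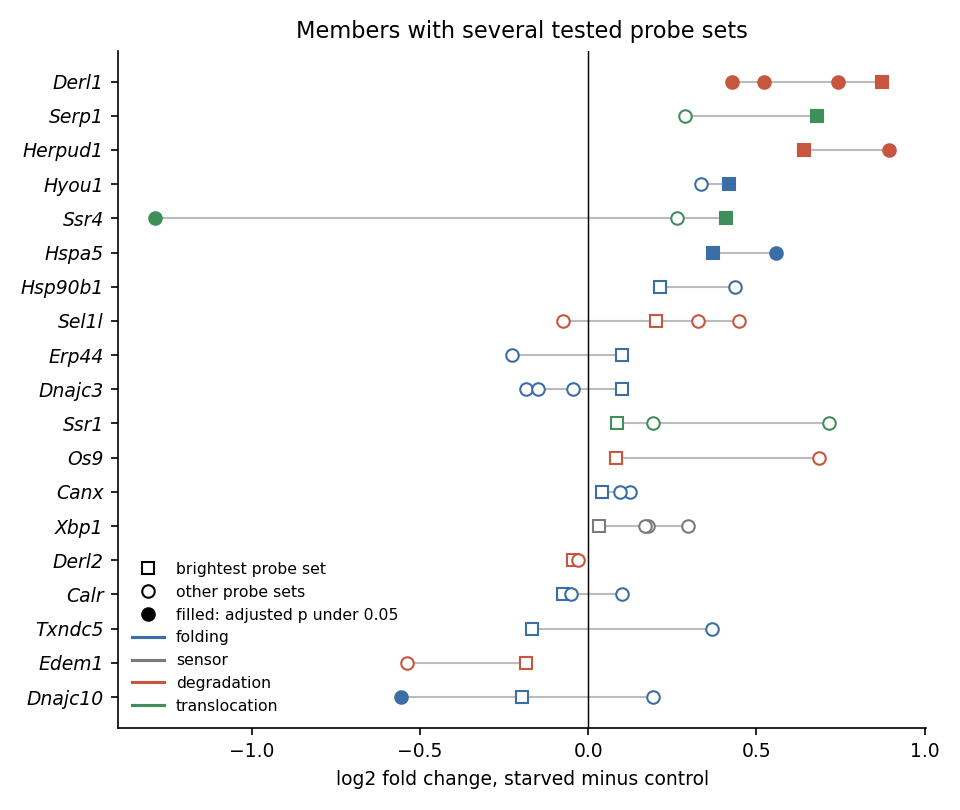
Log2 fold changes (starved minus control) of every tested probe set of the 19 members that have several, with squares for the brightest probe set and filled symbols for an adjusted p under 0.05. All 4 Derl1 probe sets are called higher, whereas those of Ssr4 lie on both sides of 0.

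The sensors did not pass. Atf6, which is cut in the Golgi to release a transcription factor, had signals of 9.74, 9.92, 9.83 and 9.91 in control arrays A to D, against 10.06, 10.34, 10.12 and 10.03 in arrays E to H of the starved group. The groups did not overlap, and the difference was 0.29 ± 0.09 (adjusted p = 0.0796). Atf6 was called higher in 1 of 19 alternatives, with array weights (adjusted p = 0.0346). Xbp1, whose mRNA is spliced by Ern1 into its active form, had signals of 11.72, 11.55, 11.63 and 11.46 in control arrays A to D, against 11.57, 11.75, 11.49 and 11.68 in arrays E to H of the starved group. The groups overlapped (0.03, 95% interval -0.14 to 0.21, adjusted p = 0.852), and the other 3 probe sets of Xbp1 were at 0.17 to 0.30 without passing. Total Xbp1 signal does not report its splicing, which these values cannot show. Ern1 itself was dim, at 7.16, 7.28, 7.19 and 7.46 in control arrays A to D, against 5.90, 6.55, 5.65 and 7.51 in arrays E to H of the starved group. In this tested Ern1 probe set 3 starved arrays were below all controls and H was above them. Starved E, F and G were also below the filter level of log2 6.61, which all controls and H exceeded. The probe set was tested because the filter used its mean over both groups. Calls of Ern1 as lower therefore rest on starved signals too dim for the filter, and they do not settle whether it fell. Other Ern1 probe sets, too dim to be tested, differed by -1.08 and 0.13. In the first of these starved H was the lowest array, at 3.90. The difference of -0.87 ± 0.34 did not pass (adjusted p = 0.153), and Ern1 was called lower without starved H (-1.21, adjusted p = 0.00945) and in unscaled values (-1.16, adjusted p = 0.0438).

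Folding and degradation genes were then set side by side. The median log2 fold change was 0.11 for the 20 folding and 0.19 for the 8 degradation members, with ranges from -0.20 to 0.43 and from -0.18 to 0.87. It was 0.40 for the 6 translocation members. The difference, folding minus degradation, was -0.08, and it ran from -0.19 to 0.02 over the alternatives. It was above 0 in 1 of them, without control B, where the folding median was 0.14 and the degradation median 0.13. Taken array by array relative to the control means, this difference was -0.17 to 0.14 in the controls and -0.17 to 0.09 in the starved arrays, so the groups overlapped. The folding median alone was -0.05 to 0.02 in controls and 0.08 to 0.19 in starved arrays. The degradation median was -0.11 to 0.13 against 0.10 to 0.33, and the translocation median -0.06 to 0.12 against 0.29 to 0.42. These medians are descriptions and were not tested.

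**Figure D4:**
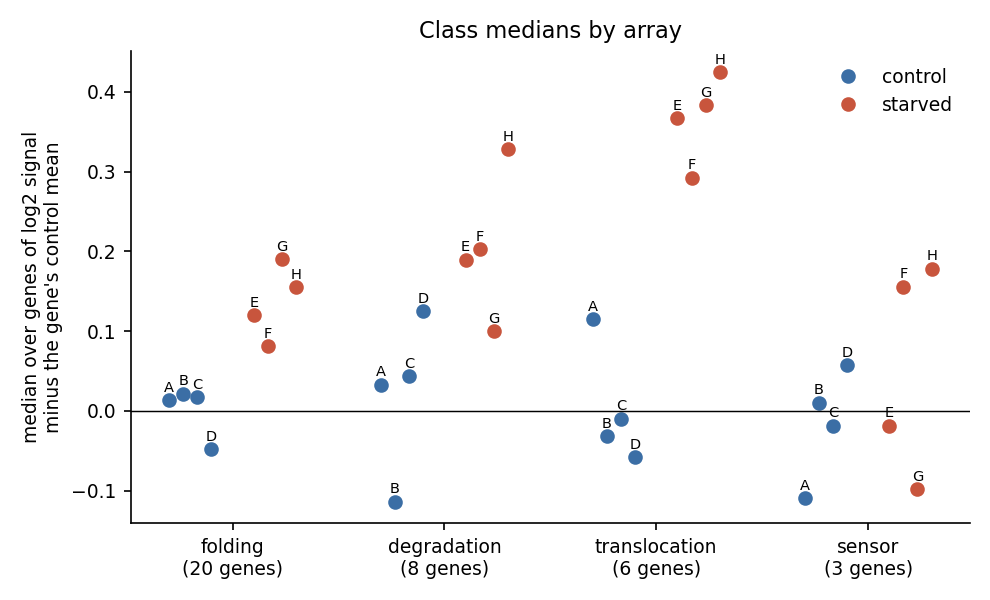
Median over the genes of a class of the log2 signal minus the control mean of the gene, 1 point per array with its letter, for 20 folding, 8 degradation, 6 translocation and 3 sensor genes. Starved arrays lie above controls for folding and translocation genes, and the groups meet for degradation and sensor genes.

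Other genes of the pathway, from lists of the neighbouring steps, were set beside the members. In the PERK and ATF4 branch 6 of 7 tested genes rose (median 0.85): Trib3 by 2.72 ± 0.16, Chac1 by 1.73 ± 0.09, Ddit3 (CHOP) by 1.44 ± 0.12 and Atf4 by 0.67 ± 0.08, besides Ppp1r15a and Nupr1, with adjusted p-values from 1.03e-06 to 0.0120. Eif2ak3, which encodes PERK itself, was at 0.07 ± 0.19 and did not pass (adjusted p = 0.867). Eif2s1 and Atf3, also on this list, were not tested. Of 20 other folding and oxidation genes 2 rose, the oxidase Ero1a by 0.85 ± 0.15 and the prolyl isomerase Fkbp2 by 0.48 ± 0.14, and the isomerase Ppic fell by 0.83 ± 0.11. Their adjusted p-values were 0.00427, 0.0455 and 6.29e-04 in that order, and the Fkbp2 call held in 8 of 19 alternatives (0.51, adjusted p = 0.0511 without control B). Of 23 other degradation genes Derl3 rose, and none fell. Of 26 other translocation, signal peptidase and glycosylation genes Sec62 rose by 0.51 ± 0.08 and Krtcap2, an oligosaccharyltransferase subunit, by 0.50 ± 0.07, while Tusc3, another one, fell by 0.64 ± 0.11 (adjusted p = 0.00131 to 0.00393).

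Among 7 other sensors and regulators Creb3 rose by 0.40 ± 0.07 (adjusted p = 0.00387), and the related factor Creb3l1, which controls collagen genes in bone, fell by 0.52 ± 0.11 (adjusted p = 0.0111). Wfs1, a calcium-handling membrane protein of the organelle, fell by 1.07 ± 0.15 (adjusted p = 7.50e-04). Of 16 genes of exit and retrieval Kdelr2, a receptor that returns escaped chaperones, rose by 0.34 ± 0.08 (adjusted p = 0.0156), at -0.04 in unscaled values, and its call held in 13 of 19 alternatives. The shares called higher were 85.7% for the PERK and ATF4 branch, 10% for other folding, 4.35% for other degradation, 7.69% for other translocation, 14.3% for other sensors and 6.25% for exit genes, against 4.25% of all genes. The shares called lower were 5% for other folding, 3.85% for other translocation and 28.6% for other sensors, against 6.93% of all genes. These lists hold few genes and were chosen with earlier results of these data known. Their shares are therefore descriptions and no independent result. The fibroblast marker Col1a1 fell by 1.15 ± 0.08 and Postn fell by 2.42 ± 0.15, while Dcn rose by 0.94 ± 0.14, and the relation of these secreted proteins to the chaperone values was not tested.

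The direction of many members depended on the scaling between arrays. Trimmed mean intensities were 316 to 453 in control and 242 to 365 in starved arrays. In unscaled values the median of all genes moved from 0.01 to -0.34, and 0 members were called higher and 1 lower (Ern1), beside 0.539% and 12.3% of all genes. There Derl1 was at 0.49 (adjusted p = 0.0720), Serp1 at 0.30 (adjusted p = 0.420) and Herpud1 at 0.27 (adjusted p = 0.336), which is 0.83, 0.64 and 0.61 above the median of all genes. With median or 75th percentile centring these 3 were the members called, where 2.60% and 3.44% of all genes were called higher. They held in 18 of 19 alternatives, and Hspa5 in 15.

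**Figure D5:**
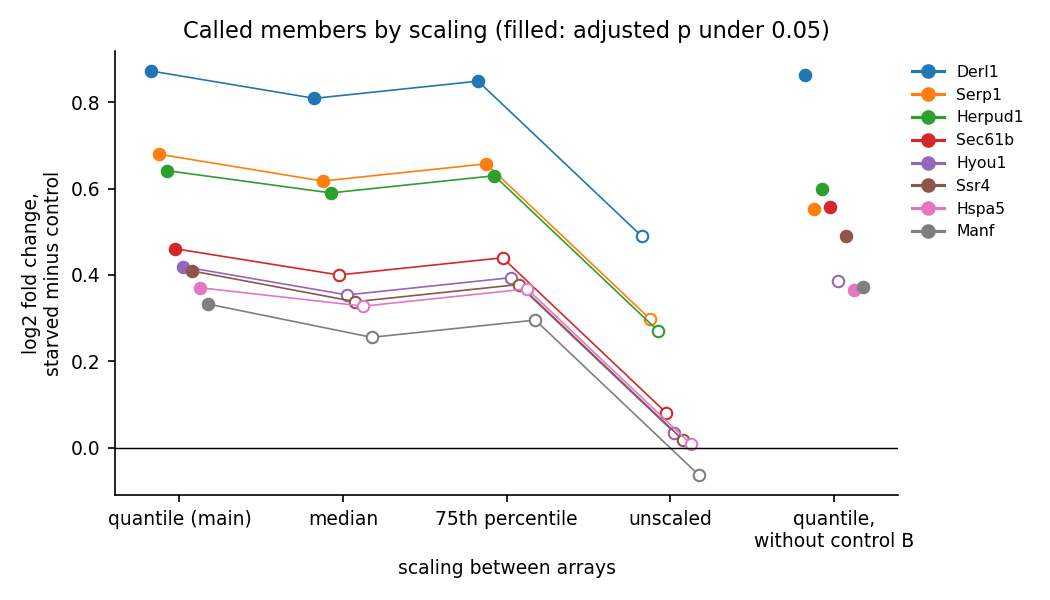
Log2 fold changes (starved minus control) of the 8 called members under 4 scalings between arrays and, with quantile normalization, without control B; filled points have an adjusted p under 0.05. Derl1, Serp1 and Herpud1 stay filled except in unscaled values, where none is.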

How the data were processed

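The values the authors deposited are linear intensities, 1 for each probe set on each array, and the software behind them is not given in the labels or files used. Signals were brought to log2(value + 10.9), the offset being the 10th percentile of all values, and quantile normalized. Of 22690 probe sets 64 controls were left out, and 13575 were tested, those whose mean exceeded the 40th percentile (log2 6.61), with limma 3.58.1 in R 4.3.3 (lmFit, eBayes with intensity trend, Benjamini-Hochberg, threshold 0.05), which gave 8352 genes through the brightest probe set with 1 symbol. Because of the offset, fold changes of dim genes are understated on this log2(value + offset) scale.

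Groups came from the array titles. Nothing says that replicates were separate cultures, so the spread behind the p-values is that between these samples only and may be technical. Gene symbols are those of the 2016 platform annotation, and all 75 member probe sets matched the mouse RefSeq table (GRCm38.p6) by gene number. List genes with older symbols were matched through it. No protein sequences were analysed here, although a search of them had been planned. Sequences are RefSeq's, and motif searches were exact.

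The members, lists and tests were chosen with earlier results of these data known. By the rule for named genes, called members and Hspa5, Hsp90b1, Xbp1, Atf6 and Ern1 have every array printed, and up to 3 called genes per direction of each list are named. Ppp1r15a, Nupr1, Eif2ak3, Syvn1's arrays and the extra probe sets were added after their values were seen. Class medians, promoter counts and list medians have no test. Alternatives covered scaling, offset, filter, variance model, array weights, probe set averaging and leaving out each array. The number of arrays limits the precision. Matplotlib 3.10.9 under Python 3.11.15 drew the figures.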

Additional observations from a re-analysis of the deposited data

Results flagged for a closer look

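A sample far from the other 3 of its group, by Dixon's ratio of gap to range, was found in 3 of 74 groups of 4 arrays checked for the 37 members, where chance gives about 5%. Pdia3 was at a log2 signal of 9.54 in control B, with the other controls at 10.29 to 10.34, and control B also had the high 3' to 5' Gapdh ratio; the part of RNA quality in this value was not tested. Manf was at 10.39 in starved H, with the other starved arrays all at 10.51, still above every control. Calr was at 12.56 in starved H, with the others at 12.46 to 12.48.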

How the results depend on the processing

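Of 700 values of single members under 19 alternatives, 601 kept their direction and side of the threshold, 50 lost a call, 9 gained one and 40 changed sign. The number of members called higher (8) was 0 in unscaled values, 3 with median centring, 3 with 75th percentile centring, 3 without an intensity trend, and 4 to 8 when 1 array was left out: 5 without control A, 4 without control C, 4 without control D, 4 without starved G and 5 without starved H. The number called lower (0) was 1 in unscaled values, and 0 to 1 when 1 array was left out. The folding median was -0.25 in unscaled values, 0.073 with median centring and 0.10 to 0.15 with 1 array left out. The degradation median was -0.17 in unscaled values, 0.30 with the mean of the probe sets of a gene, and 0.13 to 0.25 with 1 array left out. The difference between them was -0.13 to 0.02 with 1 array left out. Counting Dnajb9 and Dnajc10 with degradation left both medians as they were, but this outcome was fixed. Dnajb9 is the highest and Dnajc10 the lowest folding member, and they lie on opposite sides of the degradation median.

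In unscaled values, whose median over all genes was -0.34, these members changed sign: Hsp90b1 (-0.17), Dnajb11 (-0.030), Dnajc3 (-0.27), Sdf2l1 (-0.28), Canx (-0.33), Creld2 (-0.25), Manf (-0.064), Pdia3 (-0.16), Pdia4 (-0.069), Pdia5 (-0.16), P4hb (-0.24), Erp44 (-0.27), Xbp1 (-0.32), Atf6 (-0.11), Edem2 (-0.18), Sel1l (-0.17), Os9 (-0.31) and Ssr1 (-0.31). Outside the members Kdelr2 did so (-0.041). With median centring Canx was at -0.0079 and Xbp1 at -0.00068, with 75th percentile centring Calr was at 0.029, and with array weights Erp29 was at 0.068. With the mean of the probe sets of a gene Dnajc3 was at -0.070, Erp44 at -0.063, Txndc5 at 0.10 and Ssr4 at -0.21. When 1 array was left out, signs also changed for Erp29 (-0.067 to 0.073), Ssr3 (-0.077 to 0.030), Sdf2l1 (-0.096 to 0.18), Xbp1 (-0.010 to 0.075), Pdia6 (-0.20 to 0.059), Canx (-0.044 to 0.087) and Ssr1 (-0.012 to 0.21). Apart from Manf and Ssr4 none of these members was called. The cause of these changes was not tested; leaving out an array also lowers the number of samples. The alternatives for named pathway genes, list counts and the other class medians were added after seeing the data. No paired analysis was possible because the replicate letters differ between the groups.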
